A study of Mus musculus with 4 samples.

Results

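Polyamines are small positively charged molecules that every dividing cell makes from ornithine, and 10 genes that make them, break them down, hold their synthesis in check or use them were examined in T helper 17 (Th17) cells, CD4 T cells defined by the cytokine IL-17. They are Odc1, Srm, Sms, Sat1, Paox, Smox, Oaz1, Oaz2, Azin1 and Dhps. They were chosen by name and by no rule on their values, though with earlier results of these data known. Each matched 1 of the 23356 gene rows of the authors' deposited table. Th17 cells from C57BL/6 mice of 6 to 8 weeks were cultured for 48 h, and their RNA was sequenced in 4 libraries. Vehicle-treated cells (titles marked veh, treatment labelled none) gave 2 of them. The other 2 came from cells that received the acute-phase protein serum amyloid A1 (SAA1), recombinant and murine, at a labelled 2 ng/ml. The comparison asks which Th17 transcripts differ when SAA1 is in the culture. Nothing in the labels says how the cells were polarised or whether the libraries came from separate mice or cultures.

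Ornithine decarboxylase, the product of Odc1, makes putrescine, and aminopropyl groups are then added to give spermidine and spermine. Cells limit the pathway by antizymes, proteins that bind ornithine decarboxylase and send it to the proteasome, and by acetylation and oxidation, which return spermine and spermidine towards putrescine. Activated T cells are known to raise polyamine synthesis with the help of Myc, and polyamine metabolism has been tied to how Th17 and regulatory T cells separate. Spermidine is also the donor for hypusine, a modified lysine that the translation factor eIF5A needs.

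All 7 T cell markers examined were present, from 39.1 to 303 FPKM with vehicle and from 28.2 to 304 FPKM with SAA1 (sequenced fragments relative to transcript length and to all mapped fragments). Of them, 1 was called higher with SAA1 and 1 lower by the authors' deposited table. Over all tested rows, 6.52% were called, 3.97% higher and 2.55% lower. Thy1 rose from 66.0 to 96.8 FPKM and Cd3e, a CD3 signalling chain, fell from 39.1 to 28.2 FPKM, while Cd4, which was not called, was at 162 and 131 FPKM. All 5 Th17 markers examined passed the test as higher with SAA1, as the authors' deposited table gives it. Their summed level was 264 FPKM with vehicle and 1580 FPKM with SAA1. Il23r was at 1.43 times its vehicle level (adjusted p 0.034) and Cd3e at 0.721 times (adjusted p 0.039, both by the authors' deposited table). The test statistics of Il23r and Cd3e, 2.22 and -2.17, were smaller in size than that of Myc, -2.35. The call of Myc was lost under alternatives given below that are stricter than the authors' own call. The calls of Il23r and Cd3e are therefore no firmer than that of Myc. None of Il23r, Cd3e and Thy1 (1.47 times) reached a 1.5-fold change. Among 23 rows for markers of CD8 and natural killer, B, myeloid and erythroid cells, 1 reached 1 FPKM, Cd8b1 at 4.32 and 4.24 FPKM. The summed levels of those 4 lists with vehicle and SAA1 were 4.66 and 4.52 FPKM for CD8 and natural killer cells, 2.01 and 1.53 FPKM for B cells, 0.607 and 0.424 FPKM for myeloid cells and 0.0348 and 0 FPKM for erythroid cells. C1qa and C1qb, markers of macrophages, were listed at 0 in both groups. Each value is the authors' own for a group of 2 libraries, so the spread between libraries cannot be given and the depth is unknown. In bulk RNA, fewer cells of a type and less RNA per cell cannot be told apart.

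None of the 10 polyamine genes passed the test between SAA1 and vehicle. The test was the authors' Cuffdiff run, with a gene called at a Benjamini-Hochberg adjusted p under 0.05 over 11481 tested rows. By the authors' deposited table, none of the members was called, with 0 higher and 0 lower, against a background of 6.52% of tested rows called (3.97% higher and 2.55% lower). Without adjustment, 2 of the 10, Srm and Azin1, had a p under 0.05 in the authors' deposited table. That is 20% of members against 15.8% of all tested rows (8.22% higher and 7.62% lower), a share near the background. Both had the lower value under SAA1. With a looser limit of 0.1 on the adjusted p, 1 member (Srm) passed, against 8.81% of all tested rows. All 10 were expressed at 4 FPKM or more in both groups and all were tested. The median log2 ratio of SAA1 over vehicle was 0.04 over the members and -0.02 over all tested rows with a value in both groups, and the median absolute log2 ratio was 0.19 and 0.15.

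**Figure D1:**
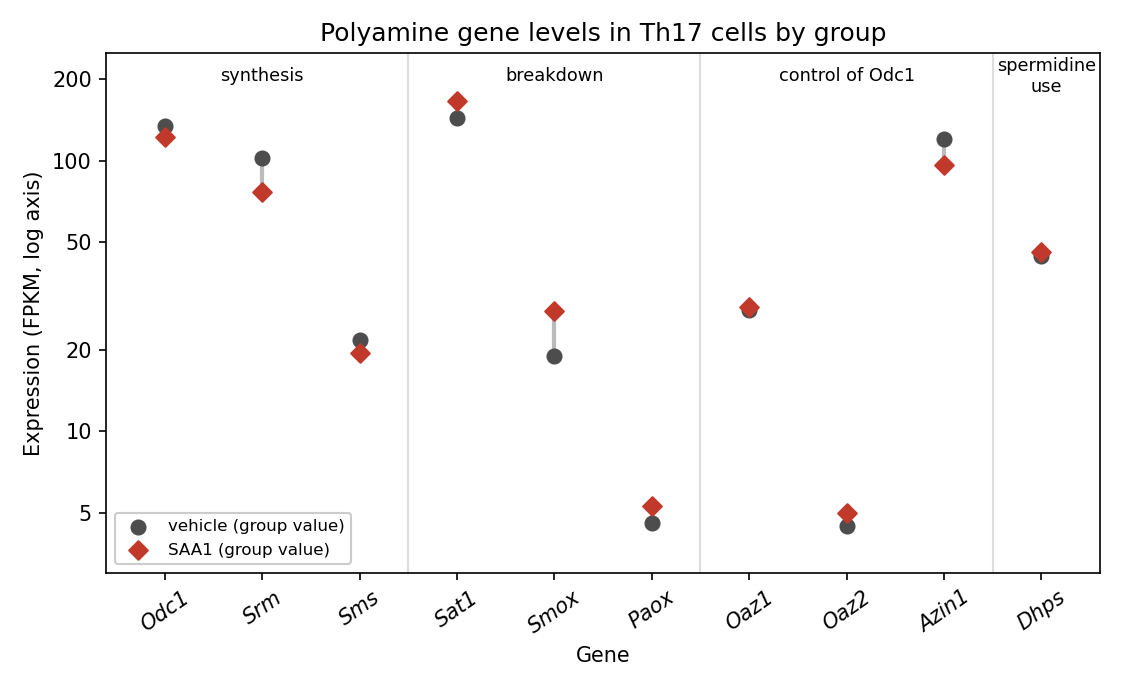
Group values in FPKM (log axis) of the 10 polyamine genes in Th17 cells with vehicle (circles) and SAA1 (diamonds), each from 2 libraries. The genes run from about 4.5 FPKM (Oaz2, vehicle) to 166 FPKM (Sat1, SAA1), and the gap between the groups is small beside the gaps between genes.

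Odc1 (chromosome 12 from 17544873 to 17551502, mm10, as are all positions here), which makes putrescine and is the committed step, was at 134 FPKM with vehicle and 122 FPKM with SAA1. It was the second most abundant member in both groups. The log2 ratio was -0.13 ± 0.20 (SE implied by the authors' test statistic), with a 95% interval from -0.52 to 0.26, so that fold differences from 0.695 to 1.195 lie within it. The authors' deposited table lists an adjusted p of 0.77 for Odc1.

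Srm (chromosome 4 from 148591513 to 148594619), spermidine synthase, came nearest to the threshold of the 10. It was at 102 FPKM with vehicle and 76.8 FPKM with SAA1, a fold of 0.754 and a log2 ratio of -0.41 ± 0.20. Its interval, from -0.81 to -0.01, was the only one among the members that left out 0. That holds with the statistic taken as normal on the log2 scale, and these intervals are wider than the deposited p-values imply. In the authors' deposited table Srm had an unadjusted p of 0.00405 and an adjusted p of 0.057, and the largest unadjusted p among called genes was 0.00325. The smallest absolute log2 ratio among called rows of 20 to 200 FPKM with vehicle was 0.416, and Srm was at -0.408, so Srm sits at the edge of what this test called at its level.

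Sms (chromosome X from 157443954 to 157492046), spermine synthase, was at 21.8 FPKM with vehicle and 19.4 FPKM with SAA1. The log2 ratio of Sms was -0.16 ± 0.21, and the authors' deposited table lists an adjusted p of 0.70. Srm stood at 4.68 times the level of Sms per length with vehicle and 3.95 times with SAA1. Thus all 3 genes of synthesis had the lower value under SAA1, and none passed the test.

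The aminopropyl groups that both synthases use come from decarboxylated S-adenosylmethionine, made by the product of Amd1. The table splits Amd1 and its near-identical copy Amd2 into 2 rows at the same locus, and they are not members because reads cannot be told apart between them. The row named for both genes was at 0.0890 FPKM with vehicle and 11.06 FPKM with SAA1, while the row named for Amd2 was at 12.4 and 0.0378 FPKM. The rows exchange their values between the groups. Summed, they were at 12.5 FPKM with vehicle and 11.1 FPKM with SAA1, a log2 ratio of -0.17 with no error of its own. The authors' deposited table called neither row (adjusted p 0.63 and 0.69).

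Genes of the way back showed the higher value with SAA1, again without a call. Sat1 (chromosome X from 155213139 to 155216409), the acetyltransferase that marks spermidine and spermine for oxidation or export, was the most abundant member, at 143 FPKM with vehicle and 166 FPKM with SAA1. Its log2 ratio was 0.21 ± 0.20, with an interval from -0.18 to 0.61, and the authors' deposited table lists an adjusted p of 0.52. With vehicle the level of Odc1 per length was 0.937 times that of Sat1, and with SAA1 it was 0.736 times, a difference that was not tested. Paox (chromosome 7 from 140125685 to 140134334), the peroxisomal oxidase of acetylated polyamines, was among the least abundant members, at 4.59 and 5.30 FPKM. For its log2 ratio of 0.21 ± 0.28 the authors' deposited table lists an adjusted p of 0.72.

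Smox, which oxidises spermine straight to spermidine, had the largest ratio and the widest error. It was at 19.0 FPKM with vehicle and 27.9 FPKM with SAA1, a 1.47-fold difference. The log2 ratio was 0.56 ± 0.56, with an interval from -0.54 to 1.66, and the authors' deposited table lists an adjusted p of 0.57. The SE of the other 9 members ran from 0.20 to 0.29, and tested rows of 10 to 40 FPKM with vehicle had a median SE of 0.21 and a 95th percentile of 0.33. The gene lies on chromosome 2 from 131491858 to 131525183 in the RefSeq annotation of GRCm38, the assembly also called mm10. Its row, however, carries a locus from 131127412 to 131604824 that it shares with 12 other rows. Of these, Cenpb was at 39.2 and 49.9 FPKM and Cdc25b at 10.8 and 14.7 FPKM, neither called by the authors' deposited table (adjusted p 0.51 and 0.75). Others did not rise in the same way. Mavs had the lower value with SAA1, at 10.3 and 8.71 FPKM, and 1700037H04Rik was at 14.1 and 15.3 FPKM, both uncalled. The part that this shared locus plays in the error of Smox was not tested.

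**Figure D2:**
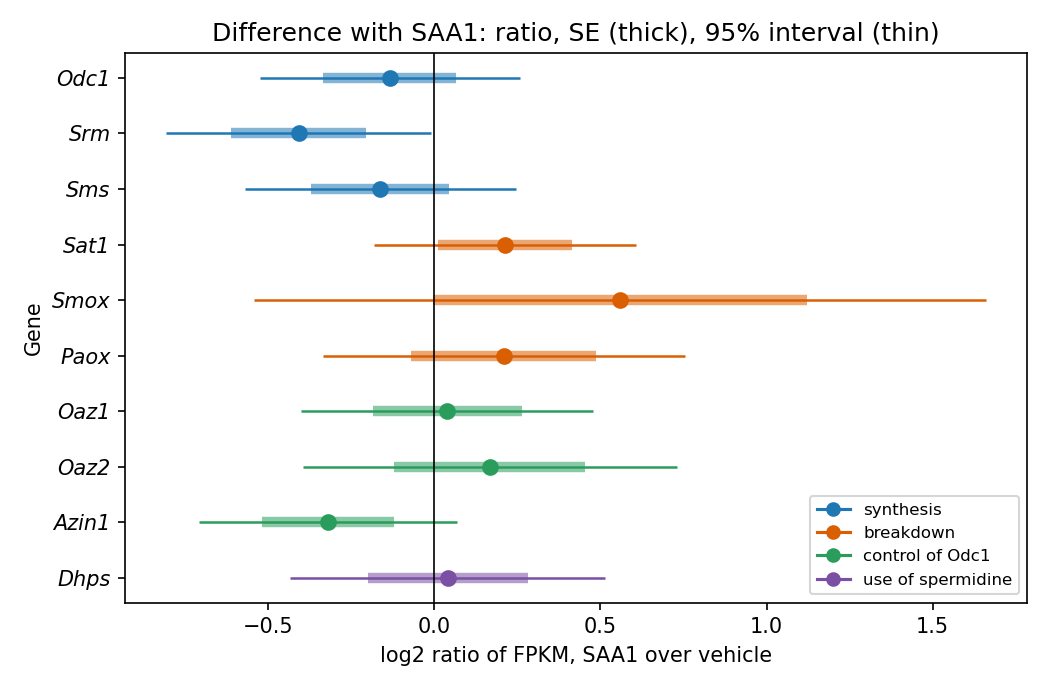
Log2 ratio of FPKM, SAA1 over vehicle, for each polyamine gene (points), with the SE implied by the authors' test statistic (thick bars) and the 95% interval (thin lines), coloured by role. The intervals of 9 genes hold 0, that of Srm ends at -0.01, and that of Smox is the widest, from -0.54 to 1.66. The intervals are wider than the authors' deposited p-values imply.

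The antizymes are made only when ribosomes change frame on their transcripts, a step that polyamines themselves promote. The transcript level given here therefore says nothing of that step. The 30 bases around the site are shown for both members because this is where their translation is set, with the last codon of the opening frame and its stop in capitals, read from GENCODE M21 transcripts.
Oaz1: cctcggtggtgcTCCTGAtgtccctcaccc
Oaz2: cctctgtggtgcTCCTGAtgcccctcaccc
The Oaz1 bases lie at chr10:80828280-80828309 and the Oaz2 bases at chr9:65686257-65686286, both on the plus strand. They are identical at 28 of 30 positions. After the stop, the next frame held no stop for 151 codons in the Oaz1 transcript read and 106 codons in that of Oaz2.

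Neither antizyme transcript passed the test. Oaz1 (chromosome 10 from 80826656 to 80829290), the main antizyme of most tissues, was at 28.1 FPKM with vehicle and 28.9 FPKM with SAA1. Its log2 ratio was 0.04 ± 0.22, with an interval from -0.40 to 0.48, and the authors' deposited table lists an adjusted p of 0.97. The locus of Oaz1 is shared with a pseudogene row, Oaz1-ps, listed at 0 in both groups, and with a microRNA row, Mir1982, at 578 and 329 FPKM. Mir1982 was not called in the authors' deposited table (adjusted p 0.92). Whether reads of Oaz1 were counted for Mir1982 was not tested, so the level of Oaz1 and the direction of its small difference are uncertain. Oaz2 (chromosome 9 from 65676548 to 65690300), a second antizyme, was the least abundant member at 4.46 and 5.004 FPKM. For its log2 ratio of 0.17 ± 0.29 the authors' deposited table lists an adjusted p of 0.82. Per length, Oaz1 stood at 6.31 times Oaz2 with vehicle and 5.77 times with SAA1.

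Azin1 (chromosome 15 from 38487430 to 38519266) encodes the antizyme inhibitor, a relative of ornithine decarboxylase without its activity that binds antizyme and so frees the enzyme. It was at 120 FPKM with vehicle and 96.2 FPKM with SAA1, close to the level of Odc1 in both groups. The log2 ratio was -0.32 ± 0.20, with an interval from -0.71 to 0.07. In the authors' deposited table Azin1 had an unadjusted p of 0.0215 and an adjusted p of 0.19. The interval instead takes the authors' statistic as normal, for which the unadjusted p would be 0.106, and so it holds 0. It is thus wider than the deposited p-value implies, and whether 0 lies within it depends on that choice. Odc1 stood at 1.12 times Azin1 per length with vehicle and 1.27 times with SAA1.

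Dhps, deoxyhypusine synthase, which moves part of spermidine onto eIF5A, had nearly the same value in both groups. It was at 44.5 FPKM with vehicle and 45.8 FPKM with SAA1, a log2 ratio of 0.04 ± 0.24 with an interval from -0.43 to 0.51. The authors' deposited table lists an adjusted p of 0.97 for it. Its row shares a locus on chromosome 8 (85071757 to 85080746) with Wdr83, which was at 18.6 and 19.9 FPKM.

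By level the members fell into the same order in both groups except for a single exchange. From the highest they ran Sat1, Odc1, Azin1, Srm, Dhps and Oaz1, then Sms and Smox with vehicle but Smox and Sms with SAA1, and last Paox and Oaz2. By vehicle FPKM the 4 most abundant lay between percentiles 91.6 and 94.5 of tested rows, while Oaz2 and Paox lay at percentiles 25.7 and 26.2. The place of Oaz1 in this order carries the doubt over the reads of its locus given above. Neighbours in the order could not be tested against each other, since no spread between libraries is given. The 4 members with the lower value under SAA1 were Odc1, Srm, Sms and Azin1. The 6 with the higher value were Sat1, Smox, Paox, Oaz1, Oaz2 and Dhps. Of those, the direction of Oaz1 is uncertain because of the reads of its locus, and Smox and Dhps also share loci with other rows. The division into lower and higher values follows the roles for synthesis and breakdown. It rests on differences that did not pass the test, however, and the members are not replicates of each other.

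**Figure D3:**
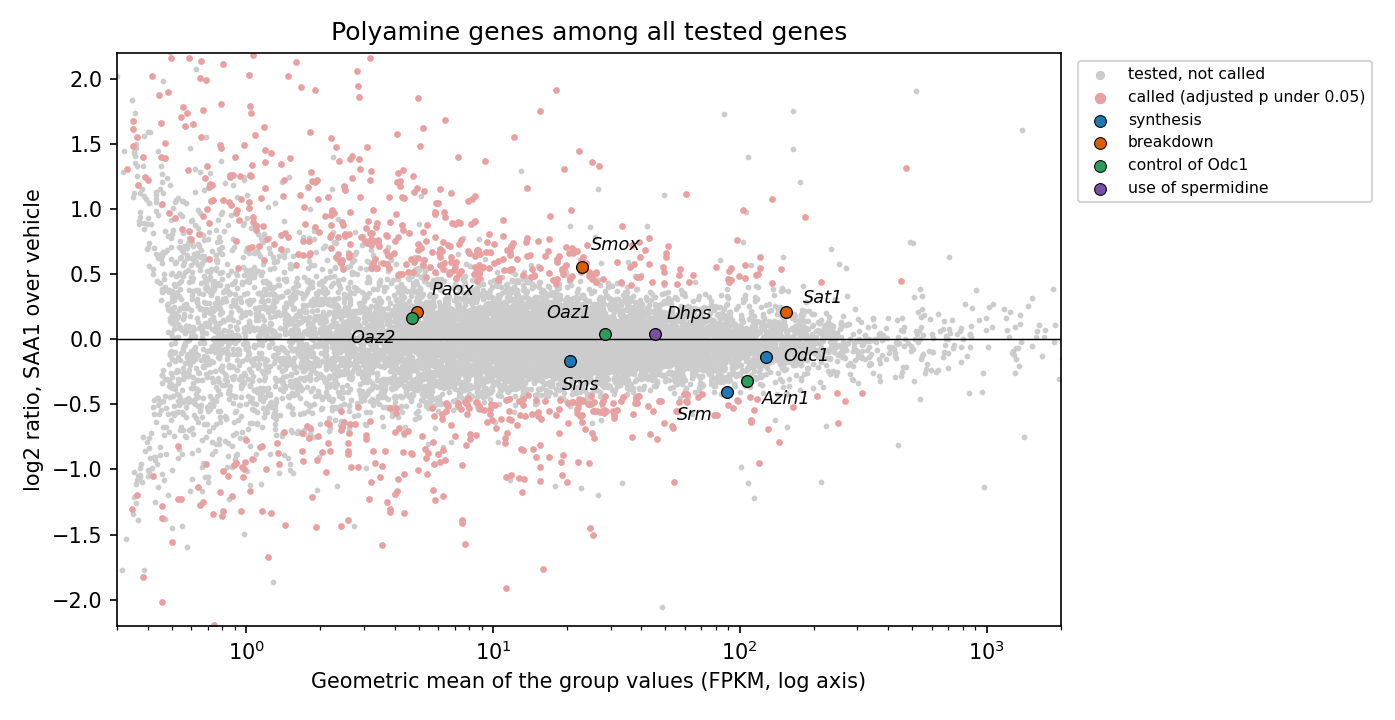
Log2 ratio of SAA1 over vehicle against the geometric mean of both groups in FPKM (log axis) for tested rows within the plotted range, with called rows in pink, other tested rows in grey and the polyamine genes in colour by role. Srm lies at a log2 ratio of -0.41, an absolute value above that of 83.3% of all tested rows, and no polyamine gene is among the called rows.

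Around these members, 6 lists of 52 genes of neighbouring steps held 4 calls among 37 tested rows. Of these 37, 2 were called higher and 2 lower in the authors' deposited table, which is 10.8% against the background of 6.52%, and their median log2 ratio was -0.01. The lists are described by these counts only. Other relatives of the members (Oaz3, Azin2, Sat2 and Satl1) stayed under 1 FPKM in both groups and were not tested, so the only tested rows of that list were the 2 Amd rows.

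Of the genes that supply or spend arginine and ornithine, 8 of 13 were tested, and 1 was called higher and 0 lower. The call was Nos2, the inducible nitric oxide synthase, which spends arginine. Nos2 rose from 1.27 to 2.96 FPKM (log2 ratio 1.22 ± 0.28; adjusted p 0.0019 by the authors' deposited table). Slc25a15, which carries ornithine across the mitochondrial membrane, was at 8.17 and 10.1 FPKM, and Ass1, which makes argininosuccinate on the way to arginine, at 8.01 and 6.42 FPKM, both uncalled. Arg1 and Arg2, the arginases that make ornithine, were both under 0.2 FPKM in each group and were not tested. Oat, which links ornithine to proline and glutamate, was at 117 and 109 FPKM. The median of the list's tested rows was 0.13.

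The methionine cycle and the salvage of methylthioadenosine, the by-product of both synthases, had 10 tested rows of 11, with 0 called higher and 1 lower. Mtrr, which keeps methionine synthase active, fell from 23.8 to 17.0 FPKM (log2 ratio -0.49 ± 0.21; adjusted p 0.016 by the authors' deposited table). It lost that call with a two-sided normal p of the authors' statistic (adjusted p 0.35), at a limit of 0.01 on the adjusted p and with a minimum change of 1.5-fold. These settings are stricter than the authors' call and gave 247, 436 and 539 calls over all genes, against 749. Mtap, the phosphorylase that takes up methylthioadenosine, was at 57.6 and 46.3 FPKM (log2 ratio -0.31 ± 0.20), and not called (adjusted p 0.21 by the authors' deposited table). Mri1, a later step of the same salvage, was at 29.3 and 34.99 FPKM and not called either, with 0.40 listed as adjusted p by the authors' deposited table. The median of the 10 was -0.07.

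Transport and hypusine genes showed 0 calls. Of 9 genes tied to polyamine transport, 5 were tested, with a median log2 ratio of 0.04, and 0 had an unadjusted p under 0.05 in the authors' deposited table. Atp13a3, a polyamine transporter whose row shares a locus with 7 others, was at 77.7 and 71.4 FPKM, Atp13a2, its lysosomal relative, at 11.5 and 12.8 FPKM, and Slc12a8 at 1.02 and 0.908 FPKM. All 3 hypusine genes were tested, with a median of -0.04 and 0 unadjusted p under 0.05. Eif5a, the protein that carries hypusine, was at 688 and 668 FPKM and so far above every member. Dohh, which completes hypusine, was at 76.1 and 86.9 FPKM, and Eif5a2, the second eIF5A gene, at 10.2 and 8.57 FPKM.

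Myc and its partners were the last list, because Myc is a known activator of Odc1. Myc fell from 56.4 to 40.5 FPKM (log2 ratio -0.48 ± 0.20; adjusted p 0.013 by the authors' deposited table). Mxi1, a Max partner that opposes Myc, rose from 5.65 to 9.40 FPKM (log2 ratio 0.73 ± 0.22; adjusted p 0.0019 by the authors' deposited table). Of 9 tested rows of 10, these were the 2 calls, 1 in each direction, and the median was 0.03. The call of Myc was lost under the same 3 alternatives as that of Mtrr (adjusted p 0.36 with the normal p), while Mxi1 and Nos2 kept theirs under all 3 (0.044 and 0.0018 with the normal p). Max, the partner of both, was at 30.5 and 32.6 FPKM. Odc1, with its log2 ratio of -0.13 ± 0.20, was not called beside them, and whether its ratio differed from that of Myc was not tested.

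**Figure D4:**
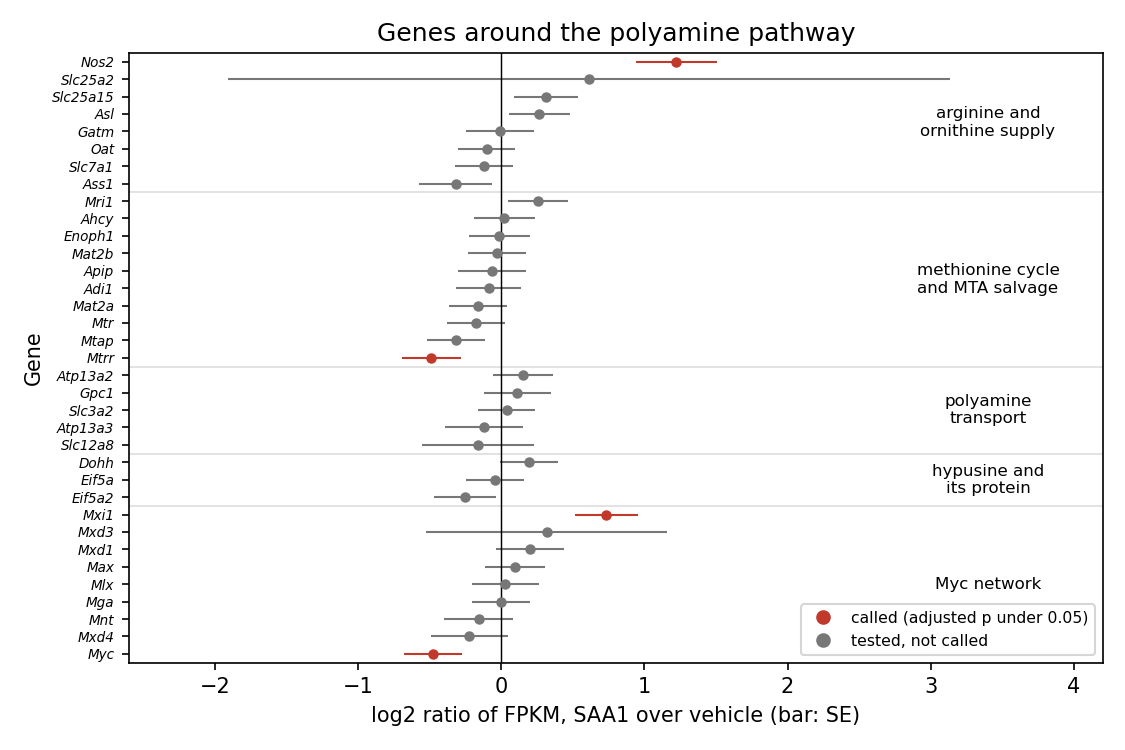
Log2 ratio of FPKM, SAA1 over vehicle, with its SE (bars) for tested genes of 5 lists around the polyamine pathway; called genes are red and MTA is methylthioadenosine. Nos2 (1.22) and Mxi1 (0.73) lie to the right and Mtrr (-0.49) and Myc (-0.48) to the left, while the wide bar is Slc25a2, whose row shares a locus with 60 others.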

How the data were processed

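The authors' deposited table gives, per gene row, a value in FPKM for each group, a Cuffdiff test statistic (a score: log ratio over its standard error), a p-value and a q-value, per the file headers. TopHat2, Cuffdiff, mm9 and mm10 are named without versions or roles in the submitters' processing notes. For filters, strand settings and scaling, nothing is stated (not given in the sources used here). Log2 ratios were recomputed from FPKM. The SE is that ratio divided by the statistic, and 95% intervals are normal. This takes the statistic to be on the log2 scale, which was not tested. For all members the intervals are wider than the deposited p-values imply. Recomputing the Benjamini-Hochberg adjustment over tested rows gave the q-values within 5.23e-07. Of 21458 rows with a symbol in RefSeq's GRCm38 table, 99.0% overlapped its position, so positions are mm10, counted from 1. In all, 4346 rows share a locus with another.

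Members and lists were chosen with earlier results of these data known. Named genes were all members, Myc, the Amd rows, and per list up to 4 called genes or, with fewer than 2 called, also the largest ratios at 1 FPKM or more, to 3. Genes named outside that rule, such as Thy1, Oat, Max, Arg1, Arg2 and those sharing loci, were chosen after their values were seen. Azin2 and Adgre1 were matched through the older symbols Adc and Emr1. Tests for values per library had been foreseen but could not be run on group values. Code for the adjustment was tested on simulated data. Alternatives covered thresholds, a 1.5-fold minimum, adjustment over fewer rows, a normal p, pseudocounts (0.1 and 1 FPKM) and centring. Python 3.11.15, pandas 2.3.3 and scipy 1.17.1 were used.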

Additional observations from a re-analysis of the deposited data

How the results depend on the processing

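No paired analysis was possible because the table holds a single value per group, and for the same reason no library could be left out and no filter on values per library tried. With the adjusted p under 0.1, 1 member was called (Srm, log2 ratio -0.41), and with an unadjusted p under 0.05, 2 were (Srm and Azin1). The shares over all tested rows were 8.81% and 15.8%. At an adjusted p under 0.01, after adjustment over rows with at least 1 FPKM, with a 1.5-fold minimum, with a normal p of the deposited statistic and without rows that share a locus, 0 members were called. In that order, the shares of all tested rows called were 3.80%, 6.56%, 4.69%, 2.17% and 7.84%. The last setting kept 7 members. The adjusted p of Srm ran from 0.051 without rows that share a locus to 0.58 with the normal p. For all 10 members the deposited Cuffdiff p-values are smaller than the normal ones (0.00405 against 0.0447 for Srm). For the 2 Amd rows the deposited p-values are larger than the normal ones (0.20 and 0.25, at statistics of 3.77 and -3.12). The cause was not tested, so the normal p and the intervals are not a second test of the authors' calls. The 4 calls in neighbouring lists became 2 (Nos2 and Mxi1) at an adjusted p under 0.01 or with the fold minimum, and 3 with the normal p, which were Nos2, Mxi1 and the row named for both Amd genes, all higher. Over all genes, 749 calls became 436 at an adjusted p under 0.01, 247 with the normal p and 1819 at an unadjusted p under 0.05. Under 2 pseudocounts, which cannot turn a direction, and 2 centrings, which subtracted medians of -0.02 and -0.03 from all ratios alike, member values moved by at most 0.04.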
